A study of Mus musculus with 33 samples.

Results

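Haematopoietic stem cells (HSCs) and granulocyte-monocyte progenitors (GMPs) of untreated old mice were compared gene by gene. The comparison was defined by the sample titles, and it took 4 HSC and 4 GMP libraries, 8 of the 33 samples of the series. All 8 came from cohort 2 and from the O-WT group, which is wild-type C57BL/6 male mice of 24 to 29 months that were given no nicotinamide riboside (NR). The mice of the O-NR group had the same strain, sex and age range and drank NR, a precursor of NAD+, for 4 to 6 weeks, and their 4 HSC and 4 GMP libraries were used as a repeat that shares no library with the O-WT contrast. The question was how the transcriptome of the stem cell differs from that of a committed myeloid progenitor in the same old marrow. HSCs were sorted as lineage-negative, c-Kit+ Sca1+ CD34- Flk2- CD150+ cells after enrichment for c-Kit. For GMPs, the gate was not spelled out in the sources used here, and one label field called them common myeloid progenitors, while the titles and the study called them GMPs. The labels did not say whether each library is 1 mouse. RNA was sequenced as total RNA, so transcripts without a poly(A) tail, such as replication-dependent histone mRNAs and small nucleolar RNAs, were also read.

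HSCs sit at the top of blood formation. They divide rarely, are held in the marrow by adhesion molecules and cytokine signals, and give rise to every blood lineage. GMPs are their descendants on the way to neutrophils, monocytes and related granulocytes. They divide fast, and they begin to make the proteases and peroxidase that are stored in the primary (azurophil) granules of neutrophils, a programme that the transcription factors C/EBPα and PU.1 switch on. In old mice, HSCs become more numerous and carry more transcripts of platelet-type and adhesion genes.

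HSC libraries held from 8434214 to 14479453 counted reads, and GMP libraries from 11755798 to 18213674. Log2 values correlated at 0.945 to 0.976 among the HSC libraries, at 0.975 to 0.986 among the GMP libraries and at 0.771 to 0.819 between the cell types. HSC library 2 had the fewest counted reads and the most counts in olfactory and vomeronasal receptor genes, which blood cells are not known to use. Their 1736 genes summed to between 1441 and 4494 CPM (counts of a gene relative to all counted reads of its library) in HSCs and between 832 and 2294 CPM in GMPs (exact permutation test, two-sided, p = 0.114). More genes exceeded 3 CPM in HSC libraries, 14710 to 21853, than in GMP libraries, 11739 to 15498 (exact permutation test, p = 0.0571), and with 4 against 4 libraries the smallest p possible was 0.0286. Below, CPM are scaled with TMM factors, fold changes are GMP over HSC with a standard error (SE), and a gene was called when its adjusted p was below 0.05 and it differed by more than 1.5-fold.

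The 4 marker genes separated the cell types in every library. Slamf1, which encodes the SLAM receptor CD150 used in the sort, read 87.0, 57.1, 64.5 and 80.7 CPM in HSC libraries 1 to 4 and 4.03, 1.91, 4.85 and 5.99 CPM in GMP libraries 1 to 4. Procr, the endothelial protein C receptor (EPCR) of HSCs, read 97.3, 71.5, 76.9 and 78.3 CPM in HSCs and 1.10, 1.59, 1.72 and 1.34 CPM in GMPs. Mpo, the myeloperoxidase of primary granules, read 2.01, 4.61, 4.55 and 4.46 CPM in HSCs and 17004, 16312, 17402 and 14723 CPM in GMPs. Elane, neutrophil elastase, read 0.251, 0.686, 0.464 and 0.412 CPM in HSCs and 1635, 1539.7, 2257 and 1690.3 CPM in GMPs. No value of one cell type reached the range of the other for any of these genes. In reads, Elane had 3, 7, 5 and 6 in the HSC libraries and 22346, 24217, 28827 and 18919 in the GMP libraries, so HSC libraries held almost none of the elastase transcript. The markers thus fitted the labels of all 8 libraries.

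**Figure D1:**
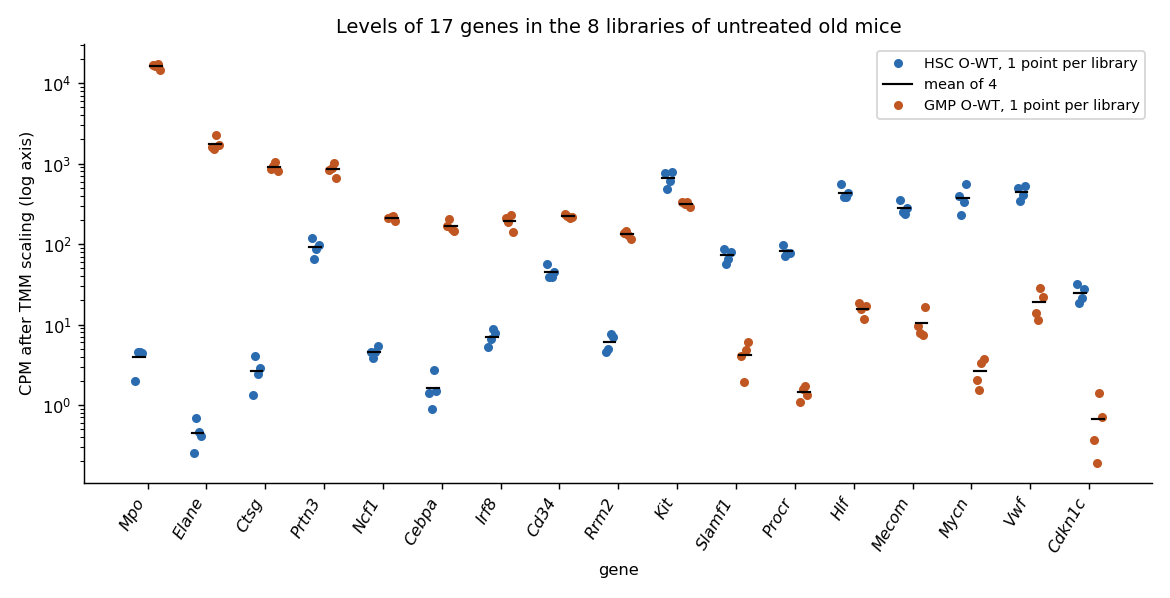
CPM after TMM scaling (log axis) of 17 genes in the 4 HSC O-WT (blue) and 4 GMP O-WT (orange) libraries, 1 point per library, with the mean as a line. The points of the cell types do not overlap for any of these genes, nor did those of 52.7% of all genes tested. For Mpo, Elane, Ctsg, Ncf1 and Procr, no overlap was a condition of a rule that chose them. Prtn3 and Mecom were added after their values were seen. The largest separation is that of Mpo and Elane, and the smallest that of Kit.

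Among 15815 genes tested, 7699 were called (48.7% of those tested). Of these, 3402 were higher in GMPs (21.5% of the genes tested) and 4297 were higher in HSCs (27.2%). The 4 HSC and the 4 GMP values did not overlap for 8342 genes (52.7%). Differences of more than 4-fold were called in 555 genes on the GMP side and 931 on the HSC side, and differences of more than 32-fold in 46 and 39 genes. The balance between the directions depended on the scaling. GMP-higher genes made up 49.5% of the called genes with DESeq2's size factors and 44.2% with TMM factors. They made up 30.9% with upper quartile scaling and 24.9% with TMM factors taken from genes above 30 CPM alone. The last of these moved the median log2 fold change of all genes by -0.34 from its value of -0.22. With TMM factors, the GMP share was 51.6% with no filter on low counts and 50.6% in a fit of all 24 libraries of cohort 2. Counts of lists with medians near 0 are therefore also given with upper quartile scaling or TMM factors from genes above 30 CPM.

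The direction of the called genes also went with their level. Among genes with a mean above 100 CPM, 666 were higher in GMPs and 200 in HSCs, whereas below 5 CPM 92 were higher in GMPs and 908 in HSCs. Long noncoding genes were called 505 times on the HSC side and 96 times on the GMP side, and protein-coding genes 3596 and 3244 times. The HSC libraries also had more counts in olfactory and vomeronasal receptor genes, with the values given above, and the part of this background in the calls of genes with few counts was not tested. Without HSC libraries 2 and 3, which had the most of it, 3320 genes were called higher in GMPs and 3332 higher in HSCs. That fit kept genes above 3 CPM in as many libraries as the smaller group had left, so it tested 16080 genes.

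**Figure D2:**
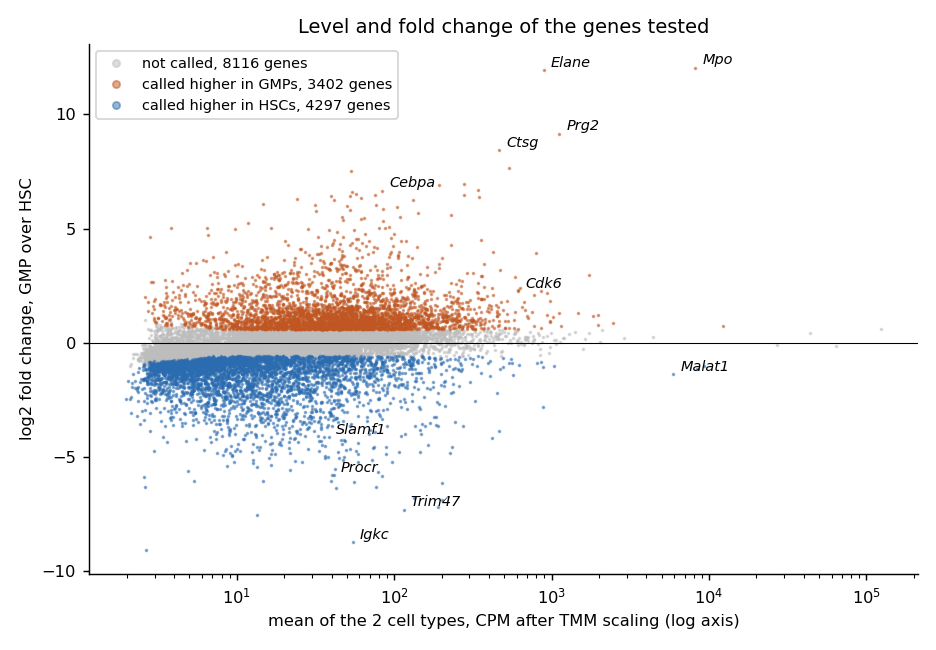
Log2 fold change, GMP over HSC, against the mean level of both cell types in CPM after TMM scaling (log axis), 1 point per gene tested, coloured by call. The 3402 GMP-higher genes (orange) reach further up and lie more often at high levels, and the 4297 HSC-higher genes (blue) are dense at low levels.

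Genes of antigens that are commonly used to sort stem and progenitor cells were read as a check, and where an antigen was in the gate its level is no finding. Of 10 such genes 6 were higher in GMPs and 3 in HSCs (60% and 30%, against 21.5% and 27.2% of all genes tested). Cd34 read 38.8 to 56.5 CPM in HSCs and 211 to 234 CPM in GMPs, and Fcgr3, one of the Fc receptor genes behind the antibody that marks GMPs, read 0.753 to 4.18 and 119 to 134 CPM. Ly6a, which encodes Sca1, read 17.4 to 32.2 CPM in HSCs and 0.366 to 0.861 CPM in GMPs. Kit, which both cell types carry, was higher in HSCs (484 to 779 against 291 to 339 CPM), by 2.07-fold. Cd48, a SLAM family gene that HSCs lack and that was not part of the HSC gate, read 0.335 to 0.823 CPM in HSCs and 41.7 to 57.3 CPM in GMPs.

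Among the gene lists, primary granule genes had the highest median toward GMPs. It was close to that of the basophil, mast cell and eosinophil genes (5.84 on the log2 scale). Of 16 primary granule genes tested, 13 were higher in GMPs and 0 in HSCs, with a median log2 fold change of 5.87 against -0.22 over all genes tested. The promoters of 4 of them are shown first, because the same PU.1 motif, GAGGAAG, stands in each. The letters are the 250 bases before the RefSeq transcription start (GRCm38.p6), 5′ to 3′ on the gene's strand, with the motif in capitals. Prtn3 was chosen after its values were seen, the others by the rule for named genes.
Mpo, plus strand of chr11:87793534-87793783: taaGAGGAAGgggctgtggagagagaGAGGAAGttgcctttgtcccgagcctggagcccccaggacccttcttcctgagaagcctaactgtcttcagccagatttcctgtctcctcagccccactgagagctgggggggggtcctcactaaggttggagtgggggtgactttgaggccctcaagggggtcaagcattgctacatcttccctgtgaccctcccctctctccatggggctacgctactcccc
Elane, plus strand of chr10:79886062-79886311: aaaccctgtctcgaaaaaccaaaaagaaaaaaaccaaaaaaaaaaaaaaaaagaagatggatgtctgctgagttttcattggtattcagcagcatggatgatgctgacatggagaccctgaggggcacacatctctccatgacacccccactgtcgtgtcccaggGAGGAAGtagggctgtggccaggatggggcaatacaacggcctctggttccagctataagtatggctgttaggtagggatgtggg
Prtn3, plus strand of chr10:79879417-79879666: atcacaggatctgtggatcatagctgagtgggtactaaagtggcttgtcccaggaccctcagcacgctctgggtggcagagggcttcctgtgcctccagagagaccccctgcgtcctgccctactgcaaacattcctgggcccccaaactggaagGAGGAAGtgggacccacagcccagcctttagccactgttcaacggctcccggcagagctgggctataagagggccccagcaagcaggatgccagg
Ctsg, minus strand of chr14:56102575-56102824: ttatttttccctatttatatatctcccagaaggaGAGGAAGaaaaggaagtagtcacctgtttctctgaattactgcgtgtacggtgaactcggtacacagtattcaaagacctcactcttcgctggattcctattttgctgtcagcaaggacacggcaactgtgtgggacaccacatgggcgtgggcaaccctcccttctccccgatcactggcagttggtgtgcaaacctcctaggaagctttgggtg

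Searched on either strand over 250 bases before and 50 after the start, GAGGAAG was found in 7 of 15 primary granule promoters in the table (46.7%) and in 15.4% of all promoters there. It was in 15.6% of the promoters of GMP-higher genes and in 16.6% of those of HSC-higher genes, so over all called genes it did not go with direction. The C/EBP motif TTGCNNAA was found in 6 of the 15 (40.0%), against 12.2% of all promoters. GAGGAAG was in 1 of 14 promoters of myeloid transcription factor genes (7.14%). These matches describe letters in a window and do not show binding.

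Mpo (Gencode M21, chr11:87793581-87804413, protein-coding) had the largest fold change of the rule for genes above 100 CPM, 12.03 ± 0.36 on the log2 scale (SE, 4 against 4 libraries, edgeR adjusted p = 2.33e-15). Elane (chr10:79886247-79888215) followed with 11.94 ± 0.31. Next by this rule was Prg2, an eosinophil gene given below, with 9.16 ± 0.52. After it came Ctsg, cathepsin G (chr14:56099881-56102574), with 8.44 ± 0.27. Ctsg read 1.34, 4.02, 2.41 and 2.88 CPM in HSCs and 867, 934, 1059.9 and 814 CPM in GMPs, and the ranges lay far apart. Prtn3, proteinase 3, lies beside Elane on chromosome 10 (chr10:79874476-79883174) and was the exception in size. It read 119.6, 64.5, 87.8 and 96.3 CPM in HSCs and 846, 872, 1032 and 665 CPM in GMPs, a log2 fold change of 3.21 ± 0.20. Per kilobase of exon, the GMP level was 493 CPM for Prtn3 and 1809 CPM for Elane, and the HSC level was 53.1 CPM for Prtn3 and 0.461 CPM for Elane. HSCs thus carried Prtn3 transcripts at a level that they did not have for the neighbouring elastase gene. Prss57, a further granule serine protease, read 1.49 to 2.40 CPM in HSCs and 79.4 to 96.3 CPM in GMPs. Plac8 (2.47 to 7.55 against 477 to 611 CPM), the cystatin gene Cst7 (0.617 to 1.76 against 102 to 119.6 CPM) and Ms4a3 (2.34 to 4.41 against 223 to 287 CPM) did not overlap between the cell types either. For Mpo, Elane, Ctsg, Prss57, Cst7 and Ms4a3, no overlap was a condition of a rule that chose them. Of all genes tested, 52.7% had no overlap. Lyz2, lysozyme M, was not called and read 89.1, 46.9, 69.98 and 85.3 CPM in HSCs and 62.2, 53.5, 86.7 and 56.2 CPM in GMPs, with overlapping ranges.

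Genes of the later granules were mostly low. Of 15 genes of the list for secondary and tertiary granules 6 passed the filter on low counts. Of these, 3 were higher in GMPs (50%, against 21.5% of all genes tested). The 1 higher in HSCs (16.7%, against 27.2%) was Padi4, given below. Lcn2, the siderophore-binding lipocalin, read 1.44 to 2.35 CPM in HSCs and 9.20 to 16.4 CPM in GMPs. Padi4, a histone-modifying enzyme of neutrophils, was higher in HSCs, where it read 75.8, 41.8, 50.5 and 86.4 CPM against 14.6, 15.2, 14.8 and 17.2 CPM in GMPs, a 4.13-fold difference. All 6 subunit genes of the NADPH oxidase, which makes superoxide in phagocytes, were higher in GMPs. The soluble subunit gene Ncf1 read 3.82 to 5.42 CPM in HSCs and 193 to 223 CPM in GMPs (5.52 ± 0.17 on the log2 scale). Cybb, the catalytic subunit, read 2.17 to 6.08 against 38.9 to 80.9 CPM.

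Other genes among those with the smallest p toward GMPs were Card9, an adaptor of fungal recognition (1.58 to 2.06 CPM in HSCs and 92.7 to 111 CPM in GMPs), Chdh, a choline dehydrogenase (4.32 to 7.16 and 263 to 286 CPM), and Rab44, a large Rab GTPase (4.31 to 8.54 and 599 to 699.8 CPM). F630028O10Rik, an antisense noncoding gene on the X chromosome whose reads cannot be told from those of an overlapping gene if strand was not used, read 2.26 to 5.29 CPM in HSCs and 336 to 449 CPM in GMPs. None of these overlapped between the cell types, but for Card9, Chdh and Rab44 this was a condition of the rule that chose them. Of all genes tested, 52.7% had no overlap.

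Transcription factor genes divided along the same line. Of 18 myeloid factor genes tested, 11 were higher in GMPs and 3 in HSCs (median log2 fold change 1.07). These were 61.1% and 16.7%, against 21.5% and 27.2% of all genes tested. Cebpa, which drives entry into the granulocyte and monocyte lineages, read 1.42, 0.882, 2.69 and 1.51 CPM in HSCs and 166, 202, 152 and 145 CPM in GMPs, 102-fold higher in GMPs. Irf8, a factor of monocytes and dendritic cells, read 5.18 to 8.72 CPM in HSCs and 142 to 231 CPM in GMPs. Cebpe, which acts later in granulocytes, read 1.17, 2.74, 1.11 and 1.85 CPM in HSCs and 53.5, 73.6, 31.5 and 61.4 CPM in GMPs, and library 3 was the lowest of the GMPs. Gfi1, a repressor needed for neutrophils, was detected in both cell types (14.9 to 24.1 and 92.7 to 106 CPM).

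Of 30 factor genes associated with HSCs, 25 were higher in HSCs and 0 in GMPs (median log2 fold change -2.63). Mycn, a MYC family member, had the largest difference among them and read 392, 232, 337 and 556 CPM in HSCs and 2.05, 1.53, 3.29 and 3.75 CPM in GMPs (-7.19 ± 0.31). Hlf, a PAR bZIP factor of long-term HSCs, read 556, 381, 380.4 and 431 CPM in HSCs and 18.4, 15.4, 11.8 and 17.1 CPM in GMPs. Nkx2-3 read 55.7 to 108 and 0.636 to 1.68 CPM. Mecom, which encodes the HSC factor EVI1 and was named after its values were seen, read 237 to 349 and 7.44 to 16.5 CPM. Runx1, needed for HSCs to arise and used across the blood lineages, was not called, and its values overlapped (279, 233, 253 and 229 CPM in HSCs, 234, 257, 269.8 and 187 CPM in GMPs). Etv6, a repressor that HSCs need in adult marrow, was not called either (318 to 483 and 306 to 329 CPM). The GATA motif AGATAA was in 2 of 21 promoters of the HSC factor genes (9.52%) and in 12.7% of all promoters, so these letters did not mark the list.

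Surface proteins of HSCs and their receptors were mostly on the HSC side. Of 22 HSC surface genes, 16 were higher in HSCs and 3 in GMPs (median -2.75). These were 72.7% and 13.6%, against 27.2% and 21.5% of all genes tested. Esam, an adhesion molecule, read 59.8 to 86.4 CPM in HSCs and 2.23 to 3.84 CPM in GMPs, and Tie1 120.0 to 167 and 15.3 to 20.5 CPM. Those higher in GMPs included Cd93 (94.2 to 158 and 260.2 to 339 CPM) and Cd63 (65.0 to 108 and 133 to 195 CPM). Among 22 cytokine receptor genes, 9 were higher in GMPs and 6 in HSCs, the latter a share near that of all genes tested (27.2%). The counts were 8 and 8 with upper quartile scaling and 7 and 8 with TMM factors from genes above 30 CPM, and the median log2 fold change went from 0.19 to -0.04 and -0.15. The GMP side held Csf2rb, the β chain shared by the GM-CSF, IL-3 and IL-5 receptors (13.9 to 21.1 and 112 to 195 CPM), Csf1r, the M-CSF receptor (5.18 to 13.2 and 64.3 to 120.3 CPM), and Ifngr1 (50.4 to 88.9 and 252 to 312 CPM). The HSC side held Tek, the receptor of angiopoietin (51.2 to 72.0 and 3.94 to 8.76 CPM) and Osmr (24.1 to 34.9 and 3.62 to 9.65 CPM). Csf3r, the G-CSF receptor, was not called and overlapped, with 139, 92.1, 119.8 and 133 CPM in HSCs and 114, 137, 149 and 137 CPM in GMPs.

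Genes of the cell cycle were higher in GMPs nearly without exception. In the S phase list 37 of 38 genes were called, in the mitosis list 32 of 32, and among replication-dependent histone genes 53 of the 54 tested, all of them toward GMPs and against 21.5% of all genes tested. The medians were 2.11, 3.24 and 3.55 on the log2 scale. Promoters of 3 of these genes are shown for the motifs of their lists, again as the 250 bases before the RefSeq start (GRCm38.p6), 5′ to 3′. Capitals mark an E2F motif (TTCCCGC, here on the opposite strand) in Cdc6, and CCAAT boxes on either strand in Bub1 and Bub1b.
Cdc6, plus strand of chr11:98907901-98908150: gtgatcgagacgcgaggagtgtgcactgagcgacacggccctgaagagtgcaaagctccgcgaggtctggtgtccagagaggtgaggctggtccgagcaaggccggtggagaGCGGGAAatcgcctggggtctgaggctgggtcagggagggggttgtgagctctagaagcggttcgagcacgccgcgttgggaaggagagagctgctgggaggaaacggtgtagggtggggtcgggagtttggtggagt
Bub1, minus strand of chr2:127831860-127832109: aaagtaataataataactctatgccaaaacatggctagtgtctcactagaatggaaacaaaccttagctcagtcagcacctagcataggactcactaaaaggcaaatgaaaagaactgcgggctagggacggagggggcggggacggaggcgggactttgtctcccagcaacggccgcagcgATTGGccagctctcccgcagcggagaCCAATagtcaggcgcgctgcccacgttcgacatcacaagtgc
Bub1b, plus strand of chr2:118597961-118598210: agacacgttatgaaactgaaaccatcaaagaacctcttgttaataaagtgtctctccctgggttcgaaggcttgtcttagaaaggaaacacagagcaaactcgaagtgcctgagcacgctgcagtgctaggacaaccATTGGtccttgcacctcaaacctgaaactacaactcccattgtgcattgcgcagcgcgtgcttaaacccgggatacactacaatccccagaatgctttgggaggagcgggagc

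An E2F motif, TTGGCGC or TTCCCGC, was in 17 of 32 promoters of S phase genes (53.1%) and in 7.79% of all promoters. It was in 19.6% of the promoters of GMP-higher genes, 10.1% of those of HSC-higher genes and 13.2% of those of all genes tested. CCAAT was in 21 of 26 mitosis promoters (80.8%), against 41.1% of all, and the CHR motif TTTGAA in 18 of 26 (69.2%), against 20.2%. The matches of the motifs could overlap, and both strands were read.

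Cdc6, which loads the replicative helicase, read 10.6, 8.82, 9.65 and 11.1 CPM in HSCs and 78.4, 79.9, 96.5 and 76.6 CPM in GMPs. Rrm2, the ribonucleotide reductase subunit that is made in S phase, read 4.52, 5.0, 7.61 and 7.0 CPM in HSCs and 139, 144, 131 and 116 CPM in GMPs, a 21.9-fold difference. The spindle checkpoint kinase gene Bub1 read 2.93, 5.10, 4.36 and 4.53 CPM in HSCs and 62.8, 67.9, 68.0 and 59.2 CPM in GMPs, and its relative Bub1b 17.3 to 20.5 and 136 to 158 CPM. Plk1, a mitotic kinase, read 3.09 to 4.6 and 44.2 to 61.9 CPM, and Tpx2, a spindle factor, 15.2 to 18.8 and 153 to 197 CPM. All these ranges were separate, as were those of 52.7% of all genes tested. Chaf1b, a histone chaperone subunit, was the S phase gene that was not called (32.2 to 43.3 and 33.3 to 42.7 CPM). The histone gene Hist1h3c read 2.55 to 6.17 CPM in HSCs and 99.3 to 140.2 CPM in GMPs. Hist2h2be was the histone gene tested that was not called (3.71 to 7.44 and 3.18 to 4.82 CPM). Copies of histone genes are near-identical, so how their reads were shared among them is uncertain. In bulk libraries, fewer cells in cycle and less RNA per cycling cell cannot be told apart.

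Regulators of G1 did not go one way. Of 18 CDK inhibitor and G1 cyclin genes, 6 were higher in GMPs and 4 in HSCs (median 0.06, and -0.17 with upper quartile scaling). These are 33.3% and 22.2%, against 21.5% and 27.2% of all genes tested. Cdk6, the G1 kinase subunit that primes exit from quiescence, read 224, 185, 208 and 233 CPM in HSCs and 1138, 1042, 991 and 902 CPM in GMPs, 4.79-fold higher in GMPs. Cdkn1c, the inhibitor p57, read 31.5, 18.4, 21.3 and 27.5 CPM in HSCs and 0.366, 0.191, 1.41 and 0.715 CPM in GMPs, 37.7-fold higher in HSCs. Cdkn1b, p27, differed less (36.5 to 57.1 and 29.2 to 32.0 CPM, 1.55-fold), and it was not called without HSC library 1 or 4 (log2 fold changes of -0.49 and -0.58). Its call was also lost with DESeq2 and its size factors, with filterByExpr, a filter at 1 CPM or none, with all 24 libraries and without the ribosomal RNA loci (-0.57 to -0.44), and it was not called in O-NR mice (-0.53 ± 0.12). The HSC-higher count of the list was 2 without HSC library 4. Ccnd2 (211 to 362 and 185 to 228 CPM) and Ccnd3 (91.2 to 135 and 70.8 to 88.8 CPM) were not called, but were called higher in HSCs with upper quartile scaling (-0.60 and -0.68) and with TMM factors from genes above 30 CPM (-0.71 and -0.79). The counts of the list were then 4 toward GMPs and 6 toward HSCs, and 4 and 7.

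Cdkn1c is also an imprinted gene, expressed from 1 parental copy, and genes of the imprinted list were higher in HSCs in 10 of 13 tested cases (median -2.04, background 27.2%). Meg3, a maternally expressed noncoding RNA, read 122, 71.7, 101 and 93.3 CPM in HSCs and 6.88, 6.55, 6.18 and 11.3 CPM in GMPs. Rian, from the same cluster, read 57.3 to 79.0 and 5.21 to 16.5 CPM. Igf2r read 79.7 to 102 and 10.6 to 17.6 CPM, and Ndn, necdin, 22.8 to 30.4 and 0.254 to 2.41 CPM. Gnas was the member called toward GMPs (184 to 295 and 328 to 417 CPM), and it was not called with upper quartile scaling, nor without HSC library 2 or 3 (log2 fold changes of 0.42, 0.52 and 0.56). Among 18 genes tied to quiescence and FoxO factors, 9 were higher in HSCs and 3 in GMPs. These were 50% and 16.7%, against 27.2% and 21.5% of all genes tested. Txnip, a thioredoxin-binding protein, read 1193, 426, 918 and 937 CPM in HSCs and 63.7, 55.1, 62.0 and 59.5 CPM in GMPs, with library 2 the lowest HSC value. Foxo1 read 34.9 to 49.6 and 6.89 to 11.8 CPM and Sesn3, a FoxO target, 82.3 to 112 and 17.9 to 24.03 CPM. Hif1a, the oxygen-sensing factor, was higher in GMPs (47.5 to 51.8 and 80.1 to 96.0 CPM), and was not called with TMM factors from genes above 30 CPM (0.50).

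**Figure D3:**
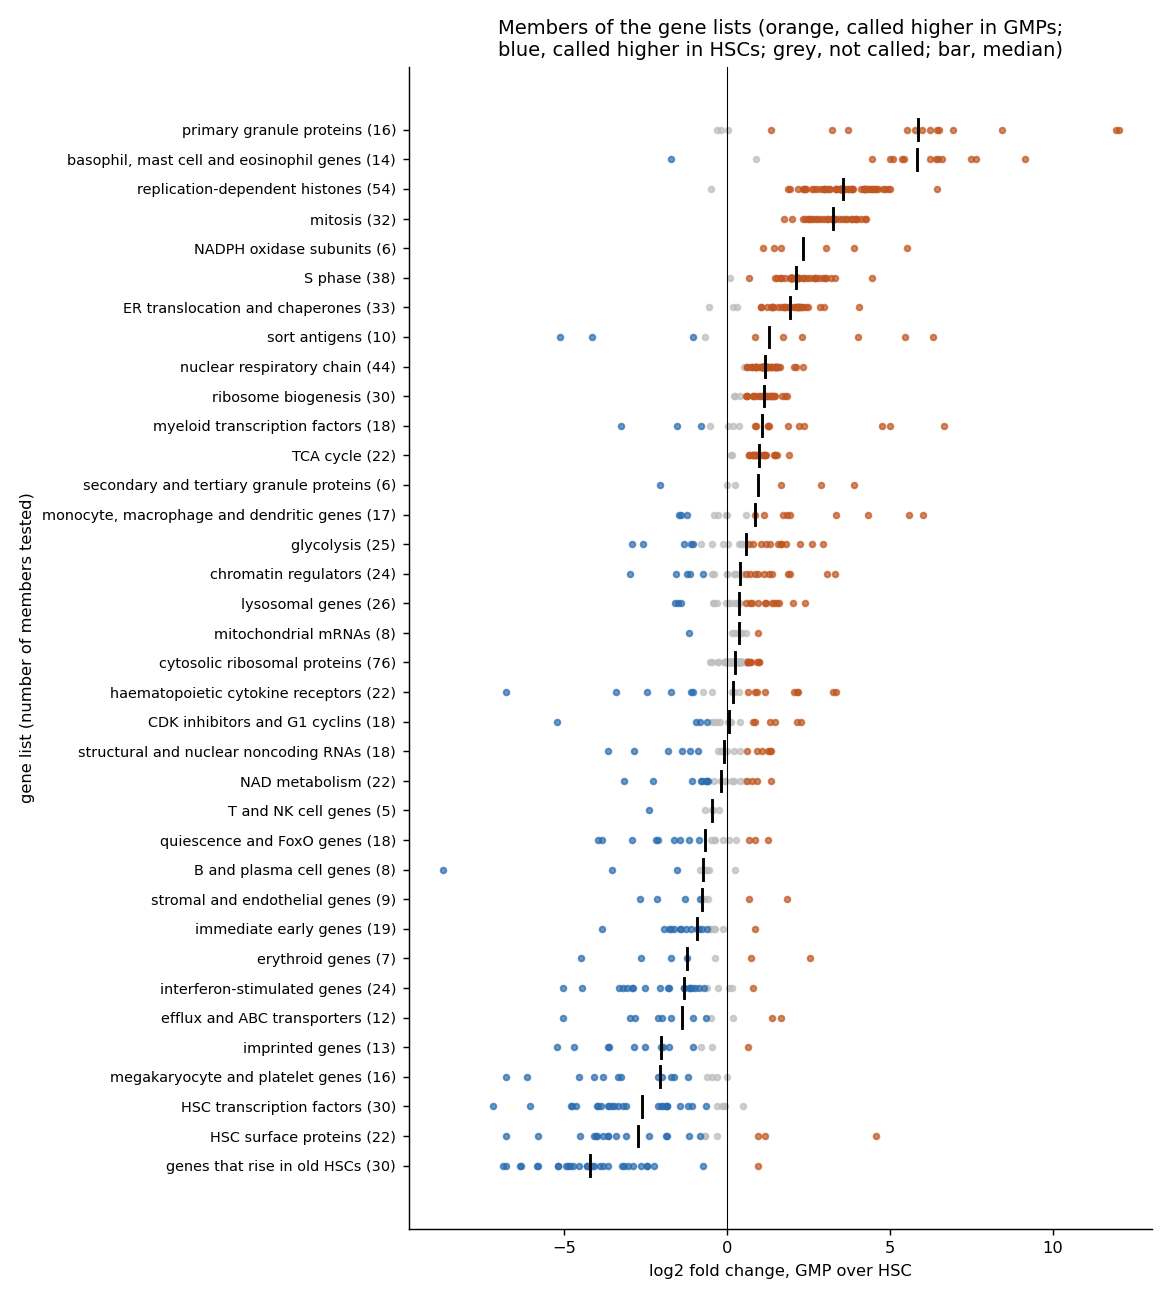
Log2 fold change, GMP over HSC, of each tested member of the 36 gene lists, 1 point per gene, with the list's median as a bar and the number of members tested in brackets. Lists are ordered by median. All mitosis and nearly all histone and S phase genes lie to the right, toward GMPs, and 29 of the 30 genes of the old-HSC list lie to the left, toward HSCs.

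Genes that build and fold proteins were higher in GMPs, apart from ribosomal proteins. Of 30 ribosome biogenesis genes, 27 were higher in GMPs and 0 in HSCs (median 1.14), such as Nolc1, a nucleolar chaperone (44.9 to 86.1 and 198 to 289 CPM), and Rrs1 (17.1 to 27.7 and 60.7 to 90.6 CPM). Of 76 cytosolic ribosomal protein genes, 9 were called, all toward GMPs (11.8%, against 21.5% of all genes tested). The count was 16 without HSC library 1, 14 without GMP library 4 and 5 without HSC library 2. With upper quartile scaling 3 were higher in GMPs and 2 in HSCs, and without HSC libraries 2 and 3 the counts were 4 and 2. With TMM factors from genes above 30 CPM they were 3 and 4, and the median of 0.23 became -0.09. Rpsa, the most abundant of those not called, read 2017, 1229.6, 1472 and 2033 CPM in HSCs and 2410.5, 2726, 2584 and 2281 CPM in GMPs, and it was called without HSC library 1 or 4 or GMP library 1 or 4 (log2 fold changes of 0.70, 0.68, 0.61 and 0.65). It was also called with DESeq2 and its size factors, limma-voom, filterByExpr, all 24 libraries and without the ribosomal RNA loci (0.60 to 0.69), and in O-NR mice (0.60 ± 0.12). Ribosomal protein genes have many near-identical pseudogenes, so their counts are uncertain. Of 33 genes of the endoplasmic reticulum, 30 were higher in GMPs and 0 in HSCs (median 1.93). P4hb, the protein disulfide isomerase, read 169.8, 105, 131 and 159 CPM in HSCs and 1063, 1129.6, 977 and 965 CPM in GMPs, 7.31-fold higher. Sdf2l1, a chaperone cofactor, read 4.10 to 9.88 and 99.2 to 134 CPM, and Sec61b, of the translocon, 19.7 to 27.9 and 98.6 to 126 CPM.

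Mitochondrial genes of the nucleus were also higher in GMPs. In the tricarboxylic acid cycle 20 of 22 genes were called, and in the respiratory chain 43 of 44, all toward GMPs (medians 0.97 and 1.17). With TMM factors from genes above 30 CPM these counts were 11 and 33. Cycs, cytochrome c, read 23.9, 16.4, 16.5 and 25.4 CPM in HSCs and 98.7, 111, 104 and 98.8 CPM in GMPs, and Idh2, a mitochondrial isocitrate dehydrogenase, 54.9 to 91.2 and 245 to 302 CPM. The mRNAs made inside mitochondria that passed the filter did not share this. Of 8 tested, 1 was higher in GMPs, mt-Nd1 (603 to 823 and 1062 to 1398 CPM), and 1 in HSCs, mt-Nd6 (349 to 430.1 and 138 to 198 CPM), while mt-Co1 overlapped (2393 to 3085 and 2629 to 3401 CPM). Without HSC library 1 the GMP-higher count was 3, and without GMP library 2 or 4 it was 2. The other 5, mt-Co2 and mt-Co3 among them, were below 1 CPM in both cell types. How reads with several positions were counted is not given in the sources used here, so the levels of these 5 are uncertain. In glycolysis 12 of 25 genes were higher in GMPs (48%, against 21.5% of all genes tested). On the HSC side were 5 (20%, against 27.2%, so below the share of all genes). The counts were 10 and 7 with upper quartile scaling and with TMM factors from genes above 30 CPM. The hexokinase gene Hk3 read 26.9 to 48.3 CPM in HSCs and 262 to 332 CPM in GMPs. The glucose transporter gene Slc2a3 read 172, 102, 135 and 151 CPM in HSCs and 18.9, 18.1, 15.03 and 21.4 CPM in GMPs, 7.62-fold higher in HSCs. Ldhb (40.4 to 67.0 and 19.1 to 22.2 CPM) and Aldoc (9.41 to 16.9 and 1.25 to 3.57 CPM) were also higher in HSCs, whereas the phosphoglycerate mutase gene Pgam1 was higher in GMPs (13.3 to 20.1 and 99.3 to 121 CPM).

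Genes of NAD metabolism, the pathway that NR feeds, were divided, with 8 of 22 higher in HSCs and 4 in GMPs, against 27.2% and 21.5% of all genes tested. With upper quartile scaling 9 were higher in HSCs and 2 in GMPs, and with TMM factors from genes above 30 CPM 10 and 2. The HSC-higher count was 5 with DESeq2, 5 without HSC library 1 or 4 or GMP library 1, and 4 without GMP library 2. Cd38, an ectoenzyme that consumes NAD+, read 22.7, 21.3, 15.96 and 18.5 CPM in HSCs and 1.32, 2.35, 1.72 and 3.40 CPM in GMPs, 8.96-fold higher in HSCs. Nmrk1, the kinase that phosphorylates NR, read 11.9, 9.999, 11.2 and 10.9 CPM in HSCs and 5.64, 5.02, 3.52 and 6.79 CPM in GMPs, and Naprt, of the nicotinic acid branch, 10.5 to 15.6 and 2.42 to 2.77 CPM. Parp1, a nuclear enzyme that consumes NAD+ at DNA breaks, was higher in GMPs (129.8, 81.2, 96.3 and 143 CPM in HSCs, 274, 309.6, 282 and 291 CPM in GMPs). Nampt, of the salvage branch, was not called, as its fold of 1.32 stayed under the limit (43.4 to 59.1 and 63.8 to 75.8 CPM).

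Of 30 genes known to rise with age in HSCs, 29 were higher in HSCs and 1, the metallothionein gene Mt1 (14.8 to 25.6 and 26.4 to 46.8 CPM), in GMPs (median -4.22, background 27.2%). No young mice are in these libraries, so age itself was not compared. Tgm2, a transglutaminase, read 526, 277, 333 and 464 CPM in HSCs and 2.71, 2.99, 3.21 and 4.74 CPM in GMPs. Clu, clusterin, read 51.8 to 76.0 and 2.48 to 4.15 CPM, Sult1a1 92.7 to 234 and 1.40 to 2.50 CPM, and Clca3a1 123 to 243 and 1.65 to 4.56 CPM. Platelet and megakaryocyte genes were in part the same genes, and 12 of 16 were higher in HSCs and 0 in GMPs (median -2.05). Vwf, von Willebrand factor, read 502, 343, 406 and 533 CPM in HSCs and 13.8, 11.5, 28.7 and 22.2 CPM in GMPs, 23.5-fold higher in HSCs. Mmrn1, multimerin, read 323 to 471 and 2.78 to 9.11 CPM, and Itgb3 177 to 391 and 17.2 to 21.3 CPM. Its partner Itga2b, which encodes CD41, was not called and overlapped (129.8, 77.8, 117 and 103 CPM in HSCs, 94.6, 111, 52.8 and 84.8 CPM in GMPs).

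Further genes with the smallest p or largest fold toward HSCs were Trim47, a ubiquitin ligase (323, 153, 224 and 212 CPM in HSCs, 0.951, 1.08, 1.88 and 1.97 CPM in GMPs), Plscr4, a scramblase family gene (38.0 to 47.2 and 0.699 to 1.16 CPM), Art4 (109 to 194 and 2.43 to 4.29 CPM), Hacd4 (116 to 173 and 4.38 to 6.48 CPM) and Rgs1, a regulator of G-protein signals (65.9 to 73.7 and 5.09 to 6.04 CPM). Pglyrp2, a peptidoglycan-degrading enzyme, read 78.9 to 114 and 3.15 to 5.09 CPM, and Shank3, a scaffold best known from synapses, 168 to 248 and 5.81 to 9.63 CPM. The cell types did not overlap for any of them, but this was a condition of the rule that chose them. Of all genes tested, 52.7% had no overlap.

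Interferon-stimulated genes were higher in HSCs in 19 of 24 tested cases and in GMPs in 1 (median -1.31). Iigp1, an immunity-related GTPase, read 92.9, 82.2, 61.8 and 107 CPM in HSCs and 2.20, 2.29, 2.74 and 3.40 CPM in GMPs, 32.7-fold higher in HSCs. Ifi44 read 29.2 to 40.0 and 1.02 to 2.95 CPM, Oasl2 56.3 to 87.3 and 6.34 to 9.54 CPM, and Gbp2 57.1 to 82.6 and 5.09 to 9.92 CPM. Ly6e was higher in GMPs (204 to 315 and 378 to 504 CPM), but was not called with upper quartile scaling (0.58) or TMM factors from genes above 30 CPM (0.48). Ifit2 was not called (22.7 to 35.5 and 20.03 to 24.8 CPM). Immediate early genes, which respond within minutes to handling as well as to signals, were higher in HSCs in 13 of 19 cases and in GMPs in 1 (median -0.93). Egr1 read 48.9, 22.6, 50.2 and 56.5 CPM in HSCs and 5.05, 3.31, 2.82 and 1.07 CPM in GMPs, whereas Fos was not called (17.98, 7.55, 9.37 and 8.23 and 9.95, 7.76, 8.53 and 7.24 CPM). Whether the sorts of the cell types took different times is not given in the sources used here, and its part was not tested.

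Of 12 genes of the ABC transporter family, which includes the pumps that let HSCs exclude dyes, 8 were higher in HSCs and 2 in GMPs (median -1.38). Abcg2, the pump of the side population, read 75.0, 59.9, 67.6 and 80.1 CPM in HSCs and 18.003, 16.1, 16.8 and 19.8 CPM in GMPs. Abcg3 read 50.0 to 90.2 and 1.49 to 3.75 CPM and Abcb1a 26.4 to 35.4 and 1.97 to 6.34 CPM, while Abcb10, a mitochondrial transporter, was higher in GMPs (19.5 to 21.9 and 55.6 to 73.7 CPM). Of 26 lysosomal genes, 12 were higher in GMPs and 3 in HSCs (46.2% and 11.5%, against 21.5% and 27.2% of all genes tested). With upper quartile scaling the counts were 9 and 5, and with TMM factors from genes above 30 CPM 9 and 6, with a median of 0.03 in place of 0.36. Ctsz, a cathepsin, read 16.4 to 34.6 CPM in HSCs and 105 to 139 CPM in GMPs.

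Of 24 chromatin regulators, 11 were higher in GMPs (45.8%, against 21.5% of all genes tested). On the HSC side were 5 (20.8%, against 27.2%, so below the share of all genes). The counts were 9 and 7 with upper quartile scaling and 8 and 7 with TMM factors from genes above 30 CPM. Uhrf1 and Dnmt1, which maintain DNA methylation at replication, were higher in GMPs (20.6 to 46.7 against 258 to 321 CPM, and 109.7 to 198 against 558 to 629.9 CPM). The Polycomb methyltransferase genes took opposite directions. Ezh2 read 43.6, 42.3, 45.5 and 57.5 CPM in HSCs and 163, 188, 173 and 165 CPM in GMPs, and Ezh1 130.1, 109, 119 and 109 CPM in HSCs and 43.5, 34.5, 39.9 and 38.5 CPM in GMPs. Cbx7, of the same system, was higher in HSCs (37.6 to 79.9 and 6.68 to 8.22 CPM).

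Among structural and nuclear noncoding RNAs, 6 of 18 were higher in each cell type. This was 33.3% for each, against 21.5% of all genes tested toward GMPs and 27.2% toward HSCs. With TMM factors from genes above 30 CPM, 4 were higher in GMPs and 7 in HSCs. The median of -0.09 became 0.0061 with DESeq2's size factors. Malat1, an abundant nuclear RNA, read 10296, 6369.6, 7845 and 9635 CPM in HSCs and 2872, 3097, 3748 and 3458 CPM in GMPs, and Neat1, the RNA of paraspeckles, 304 to 457 and 86.2 to 117 CPM. Small nucleolar RNA genes summed to between 3767 and 4587 CPM of the counted reads in HSC libraries and between 1379 and 1967 CPM in GMP libraries, 2.38 times as much on average in HSCs (exact permutation test, two-sided, p = 0.0286, adjusted over 11 library measures 0.105), while 27 of 30 ribosome biogenesis genes were on the GMP side. Most snoRNAs lie in introns of other genes, and reads of introns and of the snoRNA cannot be told apart here. Dleu2 (17.4 to 22.7 and 46.0 to 61.8 CPM) and Snhg5 (14.5 to 22.9 and 42.0 to 55.3 CPM) were higher in GMPs. Reads of 5 ribosomal RNA loci, which were chosen after the counts were seen, took 23.9% to 27.2% of the counts in HSCs and 22.7% to 29.96% in GMPs.

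Genes of other cell types were read for what the sorted populations could hold. Basophil, mast cell and eosinophil genes were the largest such group. They summed to between 28.8 and 50.1 CPM in HSC libraries and to 6844, 5431, 1544 and 3228 CPM in GMP libraries 1 to 4, and 12 of the 14 tested were higher in GMPs. Prg2, the eosinophil major basic protein, read 3807, 2731, 702 and 1641 CPM in GMPs and 1.67 to 6.31 CPM in HSCs, and Epx, eosinophil peroxidase, 1794, 1423, 348 and 679.7 CPM in GMPs. GMP library 3 was the lowest for both, as it was for the mast cell carboxypeptidase gene Cpa3 (173, 209.6, 68.7 and 145 CPM), the basophil protease gene Prss34 (118, 162, 57.6 and 89.5 CPM) and Ear6 (185, 119, 35.7 and 85.3 CPM). Prg2 and Epx thus differed by 5.42-fold and 5.16-fold between GMP libraries of the same group, more than Mpo, which differed by 1.18-fold. Il4 was the member on the HSC side (3.06 to 7.27 and 1.02 to 2.68 CPM). Whether the GMP gate held such precursors or GMPs themselves carried the transcripts cannot be told apart in bulk libraries.

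Monocyte, macrophage and dendritic cell genes were higher in GMPs in 9 of 17 tested cases and in HSCs in 3. These were 52.9% and 17.6%, against 21.5% and 27.2% of all genes tested. F13a1, coagulation factor XIII A, read 6.02, 12.7, 10.3 and 8.64 CPM in HSCs and 479.9, 400.4, 611 and 309 CPM in GMPs, and Ly6c2 2.01, 4.22, 2.69 and 0.755 and 152, 119, 218 and 118 CPM, and for both library 3 was the highest GMP. The members on the HSC side were Cd74, the invariant chain of MHC class II (86.4 to 147 and 24.4 to 74.6 CPM), and the class II genes H2-Aa (35.5 to 56.2 and 8.93 to 28.0 CPM) and H2-Eb1 (18.9 to 35.8 and 7.46 to 19.6 CPM), the last with overlapping ranges. H2-Ab1, the class II β chain gene of the list, was not called and overlapped (29.9 to 55.6 and 28.8 to 57.3 CPM, log2 fold change -0.04 ± 0.21). T and NK cell genes summed to between 49.3 and 70.6 CPM in HSCs and between 24.99 and 41.5 CPM in GMPs, and 5 of 15 passed the filter. Of 9 stromal and endothelial genes tested 4 were higher in HSCs (44.4%, against 27.2% of all genes tested). The 2 higher in GMPs were 22.2%, near the 21.5% of all genes tested. Without HSC library 1, 7 were higher in HSCs, and without HSC library 2 or 4 or GMP library 1, 1 was higher in GMPs. The list summed to between 118 and 145 CPM in HSCs and between 77.3 and 118 CPM in GMPs. Of 16 erythroid genes in the files 7 passed the filter, and 4 were higher in HSCs and 2 in GMPs. These were 57.1% and 28.6% of the 7, against 27.2% and 21.5% of all genes tested. Of the 2 higher in GMPs, 1 was not without HSC library 2 or 4 or GMP library 1 or 2. Car2, carbonic anhydrase 2, read 246 to 405 CPM in HSCs and 11.9 to 16.4 CPM in GMPs, and Tfrc, the transferrin receptor, was higher in GMPs (23.9 to 29.2 and 128 to 179 CPM).

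B cell and plasma cell genes set the HSC libraries apart from each other. The list summed to 190, 101, 247 and 754 CPM in HSC libraries 1 to 4 and to between 85.2 and 101 CPM in GMPs. Igkc, the immunoglobulin κ constant gene, read 64.7, 16.8, 81.0 and 271 CPM in HSCs and 0.0732, 0.0636, 0.391 and 0.536 CPM in GMPs, and Jchain, a plasma cell gene, 11.5, 5.0, 12.1 and 27.9 CPM in HSCs and 0.805, 0.445, 1.88 and 1.88 CPM in GMPs. Ighm, the IgM heavy chain gene, read 77.5, 14.9, 97.1 and 412 CPM in HSCs and 59.9, 51.3, 59.3 and 35.9 CPM in GMPs and overlapped, though it was called (log2 fold change -1.55 ± 0.53, edgeR adjusted p = 0.0169). Without HSC library 4 its log2 fold change was -0.28 and without GMP library 4 -1.34, and it was not called in either case (edgeR adjusted p = 0.473 and 0.0667). Nor was it called by DESeq2 (adjusted p = 0.141), limma-voom (adjusted p = 0.261) or the edgeR test against 1.5-fold (adjusted p = 0.0573). HSC library 4 had the most Igkc, Jchain and Ighm and library 2 the least. Of the 8 genes of the list tested 3 were higher in HSCs (37.5%, against 27.2% of all genes tested), and 5 without GMP library 4. The part of plasma cells in the values of other HSC genes was not tested, and without HSC library 4 the HSC-higher count was 4162.

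**Figure D4:**
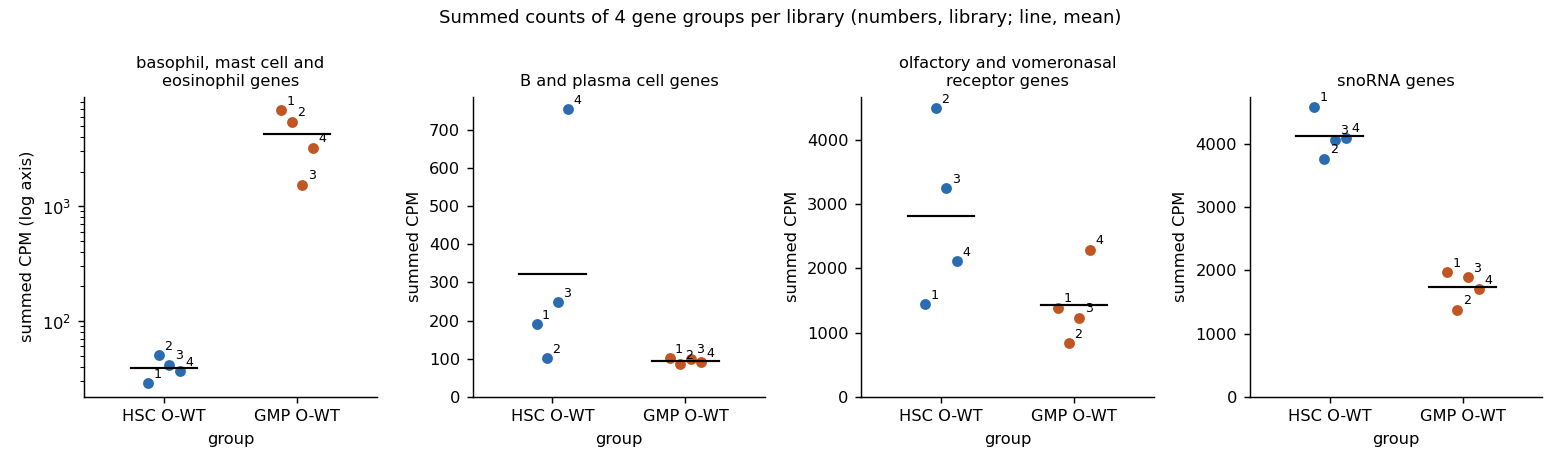
Summed CPM per library of 4 gene groups in HSC O-WT (blue) and GMP O-WT (orange), with library numbers beside the points and the mean as a line. The left panel has a log axis and the others start at 0. Basophil, mast cell and eosinophil genes are lowest in GMP library 3, and B and plasma cell genes are highest in HSC library 4. The left pair of panels is scaled with TMM factors, and the right pair is in CPM without them.

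In the O-NR mice, 7034 of 15242 genes tested were called (46.1%), 3436 higher in GMPs (22.5%) and 3598 higher in HSCs (23.6%). Of the 3402 genes higher in O-WT GMPs, 3108 were called the same way in O-NR mice (91.4% of the O-WT and 90.5% of the O-NR genes). Of the 4297 genes higher in O-WT HSCs, 3184 were (74.1% of the O-WT and 88.5% of the O-NR genes). Among those tested in O-NR, 3378 of 3379 and 4012 of 4066 had the same sign. For Mpo the log2 fold change in O-NR was 12.55 ± 0.25, for Elane 11.48 ± 0.24 and for Procr -6.16 ± 0.19. All 32 mitosis genes, 37 S phase genes, 13 primary granule genes and 29 genes of the old-HSC list were called in O-NR in the direction they had in O-WT. Basophil, mast cell and eosinophil genes summed to between 2617 and 3568 CPM in O-NR GMPs, a narrower range than in O-WT GMPs. B and plasma cell genes summed to between 49.7 and 171 CPM in O-NR HSCs, and Igkc and Jchain did not pass the filter there. Igkc still read 28.6 CPM on average in O-NR HSCs (standard deviation 36.4 CPM) and 0.370 CPM in O-NR GMPs.

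**Figure D5:**
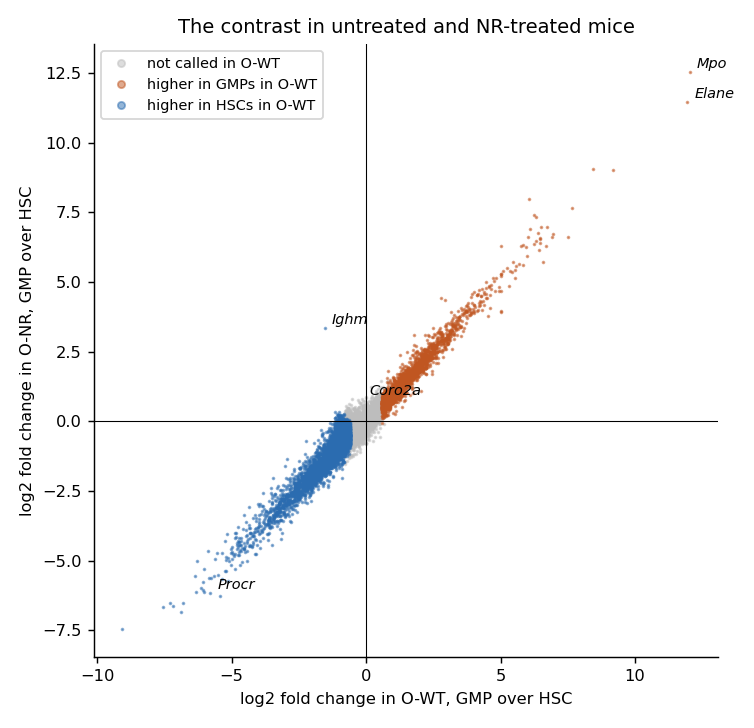
Log2 fold change, GMP over HSC, in O-NR mice against that in O-WT mice, 1 point per gene tested in both, coloured by the O-WT call. The libraries of the axes are different. Ighm lies in the upper left quadrant, away from the other genes.

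The difference of the contrast between O-WT and O-NR was tested as an interaction over the 16 libraries. It was below an adjusted p of 0.05 for 0 of 18016 genes by edgeR (0%), with 321 genes at an unadjusted p below 0.05, and for 1 gene with DESeq2's size factors. The smallest interaction p was that of Ighm, which was called higher in O-WT HSCs and higher in O-NR GMPs (3.37 ± 0.54 on the log2 scale in O-NR). Its O-WT call was lost without HSC library 4, as given above. The next smallest interaction p was that of Coro2a, a coronin, which was not called in O-WT (-0.16 ± 0.15) and was higher in GMPs in O-NR (0.81 ± 0.12). A p above the threshold does not show that the contrasts were equal.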

How the data were processed

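Total RNA libraries of sorted cells were made by the authors with a stranded low-input kit. Per the study's methods, the authors aligned trimmed reads to mm10 with STAR and counted them on Gencode M22 genes with featureCounts. The strand setting and the treatment of reads with several positions are not given in the sources used here. The deposited values are raw counts, whole numbers for 55376 gene symbols per library, and libraries were not pooled. Libraries of cohort 1 and CLP libraries entered no comparison, apart from 1 alternative fit of all 24 libraries of cohort 2. Positions are from Gencode M21 (GRCm38, the mm10 assembly), in which 54510 symbols were found, 866 were not, and 108 had several positions. Promoter sequences are from RefSeq (GRCm38.p6).

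The O-WT contrast used edgeR 4.0.16 (R 4.3.3, limma 3.58.1): genes above 3 CPM in at least 4 of the 8 libraries, TMM factors, and the quasi-likelihood test with Benjamini-Hochberg adjustment over all genes tested. The SE of a log2 fold change is its size over the square root of the F statistic. Genes were called at an adjusted p below 0.05 and a fold above 1.5. O-NR was fitted alone in the same way. Fits that left out libraries kept genes above 3 CPM in as many libraries as the smaller group had left. Their counts are thus over another set of genes than those of the main fit. For library measures an exact permutation test was used, two-sided, over 70 regroupings. DESeq2 1.42.0 and limma-voom were alternatives. The fits were tested on simulated counts. Replicates of a group differed by more than sampling noise (chi-square per degree of freedom of at least 2.61), so each was counted once. Nothing in the labels says that replicates are separate mice, so p-values measure the spread between these samples.

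The comparison and the 36 gene lists were chosen with earlier results of these data known. Named genes are the 4 markers; per direction the 10 called genes without overlap with the smallest p and the 10 with the largest fold and at least 100 CPM in the higher group; per list up to 4 called members in each direction and up to 3 not called; and genes with opposite calls or the smallest interaction p in O-NR. Mecom, Prtn3, mt-Co2 and mt-Co3 were added after their values were seen. Some genes that the rule names are not reported here.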

Additional observations from a re-analysis of the deposited data

Results flagged for a closer look

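Among 316 groups of 4 libraries, the lowest or highest library stood apart from the other 3 in 11, by Dixon's criterion at 95%, where about 1 in 20 would do so by chance (15.8 here). In HSC library 1 these were Mpo at 2.01 CPM (4.46 to 4.61 CPM in the others), Igf2r at 102 CPM (79.7 to 80.8 CPM) and Chaf1b at 43.3 CPM (32.2 to 34.1 CPM). In HSC library 3 it was mt-Co2 at 0.557 CPM, a level of few reads, and in HSC library 4 mt-Nd6 at 430.1 CPM (349 to 353 CPM) and the summed stromal and endothelial genes at 118 CPM (143 to 145 CPM). In GMP library 1 it was Rab44 at 599 CPM (688 to 700 CPM) and in library 3 Cdc6 at 96.5 CPM (76.6 to 79.9 CPM). GMP library 4 had Meg3 at 11.3 CPM (6.18 to 6.88 CPM), Tie1 at 20.5 CPM (15.3 to 15.7 CPM) and Prss57 at 79.4 CPM (94.6 to 96.3 CPM). GMP library 4 also had the most counts in olfactory and vomeronasal receptor genes among the GMPs, 2294 CPM, and its part in these values was not tested.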

How the results depend on the processing

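The number of genes called, 7699 above, was 5013 with a test against 1.5-fold (2661 higher in HSCs) and 4687 with a fold above 2 (1907 in GMPs, 2780 in HSCs). Above 3 CPM in all 8 libraries, a filter that removes genes low in one cell type, the HSC-higher count was 2682. With TMM factors from genes above 30 CPM, 2101 genes were higher in GMPs, 24.9% of those called. Among genes above 30 CPM in the higher group, a limit chosen after seeing the data, 3785 were called, 1261 higher in HSCs and 66.7% higher in GMPs. The other alternatives moved no count over all genes by more than 1.5 times. Leaving out 1 library gave 7007 to 8821 called genes, 3146 to 3877 higher in GMPs and 3761 to 5157 higher in HSCs. These fits tested 15917 to 17242 genes, against 15815 in the main fit. No alternative turned a called gene into a call in the other direction. DESeq2 called 7901 genes, limma-voom 7948, counts thinned to the smallest library 7445, and a fit without 5 ribosomal RNA loci, added after seeing the data, 7564.

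Of the genes named above, none that was called turned its direction. Of those not called, these did: Runx1 to 0.032 with DESeq2 or its size factors, 0.061 with filterByExpr, 0.064 with a filter at 1 CPM, 0.15 with no filter, 0.013 with all 24 libraries and 0.0022 without HSC libraries 2 and 3 (between -0.12 and 0.059 without 1 library); and, with upper quartile scaling and with TMM factors from genes above 30 CPM, Chaf1b (-0.14 and -0.25, and -0.042 with the filter in all 8 libraries), Csf3r (-0.076 and -0.18) and mt-Co1 (-0.010 and -0.12). Coro2a went to 0.035 with no filter and Fos to 0.036 without HSC library 1 (between -0.50 and 0.036 without 1 library). H2-Ab1 went to 0.048 with DESeq2's size factors, 0.050 with DESeq2, 0.052 with filterByExpr, 0.058 with a filter at 1 CPM, 0.13 with no filter, 0.043 with all 24 libraries and 0.022 without the ribosomal RNA loci (between -0.20 and 0.15 without 1 library). Etv6, Fos, Ifit2 and Itga2b were called higher in HSCs with TMM factors from genes above 30 CPM (-0.63, -0.67, -0.62 and -0.65), and Kit and Malat1 were not called with no filter (-0.87 and -1.20). The cause was not tested.

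HSC and GMP libraries share replicate numbers, but the labels do not say that a number marks a mouse, and deviations from the group means correlated between same-numbered libraries at 0.0198, -0.508, 0.00212 and -0.258 in O-WT and at 0.119, -0.234, -0.24 and 0.0311 in O-NR. With the replicate number as a block, 7397 genes were called in O-WT (3429 higher in GMPs and 3968 in HSCs) and 6932 in O-NR, of which 6254 were called the same way in O-WT. The block moved no count over all genes by more than 1.5 times, though 1 erythroid gene in place of 2 was higher in GMPs, 1 endoplasmic reticulum gene was called higher in HSCs, and Rpsa was called (log2 fold change 0.60, edgeR adjusted p = 0.0377). The interaction of cell type and treatment, 0 genes, was 1 gene with the replicate number as a block and 1 with DESeq2's size factors, and that gene was Ighm in both. In O-NR, leaving out 1 library gave 6885 to 7468 called genes. Genes that exceeded 3 CPM in fewer than 4 of the 8 libraries were not tested in the main fits. The 4 libraries of a group limit what small changes can be called.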
